A study of Mus musculus with 2 samples.

Results

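The 8 forkhead genes *Foxa2*, *Foxa3*, *Foxo1*, *Foxo3*, *Foxo4*, *Foxp1*, *Foxp2* and *Foxp4* were taken by symbol from the 24421 rows of the count table, and each symbol matched 1 row. Forkhead factors bind DNA through a shared winged-helix domain, in which a recognition helix lies in the major groove. FOXA proteins are pioneer factors that open chromatin in the endoderm, and in the growth plate they are known from hypertrophic chondrocytes. FOXO proteins are held out of the nucleus when insulin or IGF signaling activates the kinase AKT, and in its absence they turn on genes of cell cycle arrest, stress resistance and autophagy. FOXP proteins form dimers through a leucine zipper, act largely as repressors, and in the skeleton are known as partners of RUNX2.

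To compare transcription factor expression between cell types, the study sequenced mRNA from primary chondrocytes of rib cartilage (1 library) and, as the control cell type, from primary dermal fibroblasts of dorsal skin (1 library). Both came from newborn mice, no genetic change or treatment is given for either group, and the chondrocytes had been released with collagenase and used within the first passages, which makes them cultured cells rather than tissue. The counts summed to 18788599 reads in chondrocytes and 17563724 in dermal fibroblasts. All 9 chondrocyte markers were over 2-fold higher in the chondrocyte library (*Col2a1*, 1447098 reads against 0) and 8 of 9 dermal fibroblast markers were over 2-fold higher in the other (*Col1a1*, 322379 reads against 39143), so both labels matched their defining genes. With 1 library for each cell type there was no replicate check on any difference and no p-value was computed, and the 95% intervals given cover counting error only.

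Forkhead genes resemble each other in the coding bases of the DNA-binding domain, where reads of similar genes could be confused. Over whole protein-coding transcripts (GENCODE vM1, genome build NCBIM37), none of the 75-base words of any of the 8 genes, the length of a read, occurred in a protein-coding transcript of another gene on either strand (0 of 2176 words for *Foxa2*, 0 of 12261 for *Foxp2*). Reads of 1 gene with sequencing errors were not considered in that count.

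Relative to dermal fibroblasts, 4 of the 8 genes passed 2-fold in the direction of chondrocytes and 0 in that of dermal fibroblasts. These were both *Foxa* genes, *Foxp2* and, at the threshold itself, *Foxo4*. Among the 14291 genes with at least 10 counts in 1 library, 11.8% passed 2-fold toward chondrocytes and 16.2% toward dermal fibroblasts. Over all rows of the table these shares were 7.73% and 10.1%. All 8 genes passed this filter, but *Foxa2* and *Foxa3* passed it through chondrocytes alone, so their direction was fixed by it and the count of 4 does not stand as support against these shares. Libraries were scaled with edgeR TMM factors, levels are given as scaled CPM (reads relative to the scaled library size), and folds used a floor of 3 counts. For 3 of the 8 genes (*Foxa2*, *Foxa3* and *Foxp2*) the whole counting interval lay above 2-fold, as it did for 7.21% of the 14291 genes, with the same limit for the *Foxa* genes. The median log2 fold of the 8 genes was 0.64, and that of the 14291 genes was 0.00. The median of the 8 genes includes *Foxa2* and *Foxa3* and so carries the same limit. In a bulk library, more cells that express a gene and more RNA per cell cannot be told apart.

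**Figure D1:**
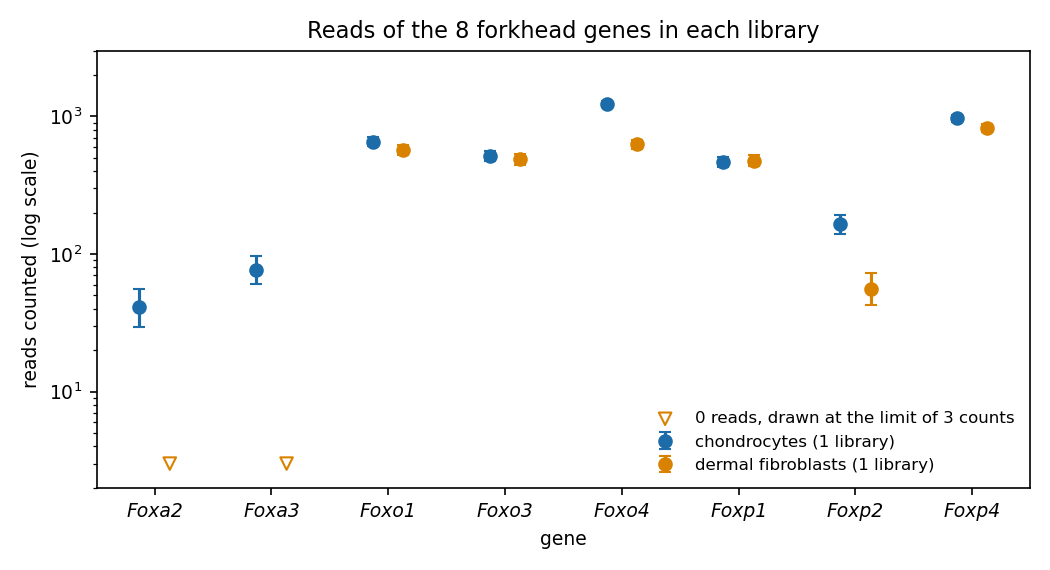
Reads counted on each of the 8 genes (log axis) in the chondrocyte library and the dermal fibroblast library; points are counts, bars are exact 95% Poisson intervals, and open triangles mark 0 reads, drawn at the limit of 3 counts. *Foxa2* and *Foxa3* had reads in chondrocytes alone, while the intervals of the libraries overlapped for *Foxo1*, *Foxo3* and *Foxp1*.

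*Foxa2* and *Foxa3* encode the pioneer factors also named HNF3 beta and gamma. *Foxa2* (chromosome 2 of GRCm38, 148042877 to 148046969) had 41 reads in chondrocytes and 0 in dermal fibroblasts. That is 2.29 scaled CPM against 0, where the floor of 3 counts is 0.163. *Foxa3* (chromosome 7, 19013283 to 19023539) had 77 reads in chondrocytes and 0 in dermal fibroblasts, or 4.30 scaled CPM against 0 with the same floor. Both genes were therefore seen in 1 of the 2 cell types, at a low level. With the dermal fibroblast count set to the floor of 3, *Foxa2* was 14.0-fold and *Foxa3* 26.4-fold higher in chondrocytes. The lower ends of their counting intervals were 10.9 and 20.9. With a floor of 10 counts the folds were 4.21 and 7.91. Of the 14291 genes, 25 (0.175%, *Foxa2* and *Foxa3* included) had 0 reads in dermal fibroblasts and at least as many in chondrocytes as *Foxa2*. With at least as many as *Foxa3* there were 15 (0.105%, *Foxa3* included). The pattern was set by the counts of these same genes, so the shares describe it and do not stand as support. The third member of the subfamily, *Foxa1*, had 0 reads in both libraries, and so did *Shh*, *Hnf4a* and *Pdx1*. Of 14 endoderm markers, 10 had 0 reads in both libraries. *Sox17* (11 reads in chondrocytes, 2 in dermal fibroblasts) was the only one to reach 10 reads, and was 3.77-fold higher in chondrocytes with the floor. The summed level of the 14 markers was 0.781 scaled CPM in chondrocytes and 0.923 in dermal fibroblasts. The part of endoderm cells in the *Foxa* counts was not tested.

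Because these genes had reads in chondrocytes alone, their start regions are shown, from 250 bases before to 50 after a RefSeq transcript start (GRCm38.p6), in the direction of the gene. Of the 3 *Foxa2* starts, the one shown is the one that holds a searched motif, at chr2:148045415-148045714 (minus strand). The *Foxa3* region is chr7:19023490-19023789 (minus strand). Capitals mark TATAAA, the core of the TATA box, on either strand.
Foxa2: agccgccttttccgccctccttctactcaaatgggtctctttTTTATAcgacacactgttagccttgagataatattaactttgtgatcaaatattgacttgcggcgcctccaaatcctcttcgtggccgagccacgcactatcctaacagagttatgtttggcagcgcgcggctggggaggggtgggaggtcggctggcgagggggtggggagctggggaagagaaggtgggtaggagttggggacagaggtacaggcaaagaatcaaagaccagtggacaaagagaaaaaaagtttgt
Foxa3: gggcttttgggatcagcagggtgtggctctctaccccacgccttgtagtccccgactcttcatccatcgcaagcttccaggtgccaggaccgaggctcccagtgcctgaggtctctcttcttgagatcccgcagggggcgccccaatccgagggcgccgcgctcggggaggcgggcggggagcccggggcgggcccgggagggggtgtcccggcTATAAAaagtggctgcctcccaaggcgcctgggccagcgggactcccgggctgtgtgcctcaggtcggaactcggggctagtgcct
In *Foxa3* the motif began 36 bases before the start, in the direction of the gene. In *Foxa2* it was on the opposite strand, 208 bases before the start. TATAAA was present in 13.6% of the 32851 RefSeq start regions of this length. The forkhead core GTAAACA (3.65% of start regions) and the SOX core AACAAT (10.7%) were in none of the 4 windows of *Foxa2* and *Foxa3*, and over the 10 windows of the 6 genes with an entry, AACAAT occurred once, in a *Foxp1* window, on the opposite strand and 228 bases before the start. The *Foxa3* window had a GC content of 69.0% and the *Foxa2* window shown 51.7%.

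*Foxo1*, *Foxo3* and *Foxo4* encode the AKT-regulated factors. *Foxo4* (chromosome X, 101254261 to 101260873) had 1231 reads in chondrocytes and 627 in dermal fibroblasts, which is 68.7 and 34.1 scaled CPM. It had more reads in chondrocytes than any other of the 8 genes. The fold was 2.02, with an interval from 1.83 to 2.22 that spans the threshold. With total counts in place of TMM factors it was 1.84, and it was no longer over 2-fold with DESeq2 size factors either. *Foxo1* (chromosome 3, 52268337 to 52350109) had 655 reads against 571, a fold of 1.18 (interval 1.05 to 1.32). *Foxo3* (chromosome 10, 42181845 to 42276695) had 518 reads against 489, a fold of 1.09 (interval 0.960 to 1.23), which fell to 0.990 with total counts. With TMM factors these genes thus lay within 1.2-fold, and *Foxo4* stood apart from both. Over the scalings tried, *Foxo1* went from 1.07 with total counts to 1.28 with *Actb*. Ratios of reads within a library need no scaling between libraries. *Foxo4* had 1.88 reads for each *Foxo1* read in chondrocytes and 1.10 in dermal fibroblasts, so the ratio was 1.71 times as high in chondrocytes (interval 1.47 to 1.99). Against *Foxo3* it was 1.85 times as high (interval 1.58 to 2.17). The ratio of *Foxo1* to *Foxo3* was 1.08 times as high, with an interval from 0.913 to 1.28 that includes equality. *Foxo6*, the remaining gene of the subfamily, had 34 reads in chondrocytes and 97 in dermal fibroblasts, where its level was thus 2.78-fold that in chondrocytes (interval 1.86 to 4.24), the direction opposite to that of *Foxo4*.

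*Foxp1*, *Foxp2* and *Foxp4* encode the leucine zipper forkhead factors. *Foxp2*, a gene known for its part in speech and motor learning circuits, lies on chromosome 6 (14901349 to 15441977). It had 164 reads in chondrocytes and 56 in dermal fibroblasts, or 9.15 and 3.04 scaled CPM. The fold was 3.01 (interval 2.21 to 4.15) and lay between 2.74 (total counts) and 3.27 (*Actb*) over the scalings tried. *Foxp4* (chromosome 17, 47867133 to 47924632) had 968 reads against 821, a fold of 1.21 (interval 1.10 to 1.33). *Foxp1* (chromosome 6, 98925342 to 99522746) had 467 reads against 475, a fold of 1.01 (interval 0.887 to 1.15) that went from 0.919 with total counts to 1.10 with *Actb*, so no direction can be given. Within a library, *Foxp2* had 0.351 reads for each *Foxp1* read in chondrocytes and 0.118 in dermal fibroblasts, 2.98 times as high in chondrocytes (interval 2.12 to 4.22). Against *Foxp4* the ratio was 2.48 times as high (interval 1.79 to 3.48). *Foxp4* against *Foxp1* was 1.20 times as high (interval 1.02 to 1.41). *Foxp3*, the regulatory T cell factor of the subfamily, had 1 read in chondrocytes and 2 in dermal fibroblasts, and of 7 T cell markers, *Cd3e*, *Cd3g*, *Cd2* and *Cd8a* had 0 reads in both libraries. The 3 others had reads in both (*Lck*, 24 in chondrocytes and 43 in dermal fibroblasts; *Il7r*, 18 and 43; *Cd4*, 5 and 21), and 2 of them were over 2-fold higher in dermal fibroblasts. The annotated span of *Foxp1* overlaps 5 other RefSeq genes and the spans of *Foxo3* and *Foxp2* overlap 1 each, none of which is in the count table, and whether the counting used the strand is not given in the sources used here. No RefSeq gene overlaps the other 5 members.

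Skeletal muscle transcripts were present in both libraries and summed to more in chondrocytes, the direction of the 4 forkhead genes over 2-fold. Of 9 muscle markers, 6 were over 2-fold higher in chondrocytes, and the sum of the 9 was 1452 scaled CPM in chondrocytes and 871 in dermal fibroblasts. Of all 14291 genes with at least 10 counts, 11.8% passed 2-fold toward chondrocytes and 16.2% toward dermal fibroblasts. *Myh3* had 7784 and 6497 reads (1.23-fold) and *Acta1* had 6259 and 4705 (1.37-fold). These were among the 3 muscle markers within 2-fold, and none of the 9 was at 0. Keratinocyte markers moved the other way, with a sum of 9.09 scaled CPM in chondrocytes and 266 in dermal fibroblasts and 6 of the 8 with at least 10 reads over 2-fold higher in dermal fibroblasts (*Krt14*, 17 reads in chondrocytes and 1939 in dermal fibroblasts; *Krt5*, 1 and 1693). *Dsg3* was at 0 in chondrocytes. Endothelial markers summed to 20.4 and 63.3 scaled CPM, with 7 of 8 over 2-fold higher in dermal fibroblasts (*Kdr*, 70 and 276 reads; *Egfl7*, 88 and 181), and none at 0. Macrophage markers summed to 118 and 184, with 1 of the 8 that reached 10 reads over 2-fold higher in dermal fibroblasts (*Lyz2*, 1046 and 1639 reads; *Cd68*, 423 and 600). The 7 T cell markers summed to 2.62 and 5.81. The part of these cells in the counts of the forkhead genes was not tested.

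Levels of different genes were compared as scaled CPM per kilobase of exon. In chondrocytes the order was *Foxo4* (19.7), *Foxp4* (11.0), *Foxo1* (6.58), *Foxo3* (4.01), *Foxp1* (2.18), *Foxa3* (2.11), *Foxa2* (0.965) and *Foxp2* (0.680). The counting intervals of *Foxp1* (1.99 to 2.39) and *Foxa3* (1.66 to 2.63) overlapped, and so did those of *Foxa2* (0.692 to 1.31) and *Foxp2* (0.580 to 0.792), so these neighbors cannot be ordered. In dermal fibroblasts the order was *Foxo4* (9.77), *Foxp4* (9.05), *Foxo1* (5.59), *Foxo3* (3.69), *Foxp1* (2.16) and *Foxp2* (0.226), with *Foxa2* and *Foxa3* at 0. There the intervals of *Foxo4* (9.02 to 10.6) and *Foxp4* (8.45 to 9.69) overlapped, whereas in chondrocytes those of *Foxo4* (18.6 to 20.8) and *Foxp4* (10.3 to 11.7) did not. *Foxp4* made up 79.3% of the summed level per length of the 3 *Foxp* genes in chondrocytes and 79.1% in dermal fibroblasts. *Foxo4* made up 65.0% of that of the 3 *Foxo* genes in chondrocytes and 51.3% in dermal fibroblasts. *Foxp2* made up 4.92% of the *Foxp* level per length in chondrocytes and 1.98% in dermal fibroblasts. These values depend on the length used, since with the longest transcript in place of summed exons the level of *Foxp2* was 1.35 in chondrocytes, above *Foxa2* (1.07), and 0.450 in dermal fibroblasts.

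**Figure D2:**
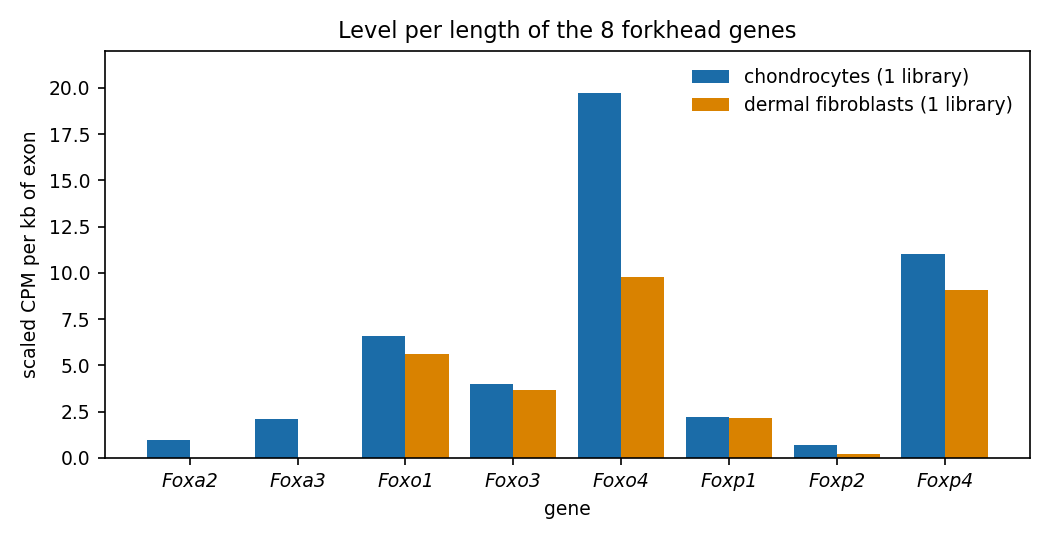
Level of each gene in scaled CPM per kilobase of summed exon length (linear axis from 0) in the 2 libraries. *Foxo4* and *Foxp4* were the highest in both libraries, and the gap between the libraries was widest for *Foxo4* (19.7 and 9.77).

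**Figure D3:**
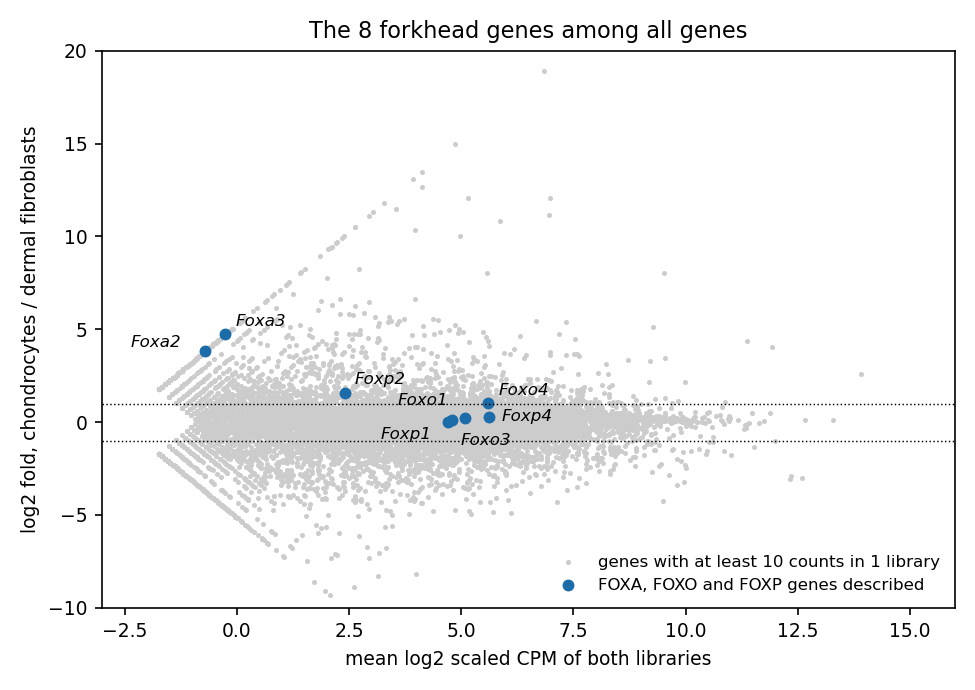
Mean log2 scaled CPM of both libraries against the log2 fold for the 14291 genes with at least 10 counts in 1 library; dotted lines mark 2-fold, and genes at or under 3 counts in 1 library line up along the outer diagonals. *Foxa2* (3.81) and *Foxa3* (4.72) lie on the upper diagonal at low abundance, while *Foxo1*, *Foxo3*, *Foxp1* and *Foxp4* lie near 0.

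Among the 14291 genes, the log2 folds of *Foxa3* (4.72) and *Foxa2* (3.81, both set by the floor) exceeded those of 99.2% and 98.6% of genes, that of *Foxp2* (1.59) exceeded 93.1%, and that of *Foxo4* (1.01) exceeded 88.3%. Those of *Foxp4* (0.28), *Foxo1* (0.24), *Foxo3* (0.12) and *Foxp1* (0.01) were above 67.3%, 64.9%, 57.7% and 51.0% of genes. Because *Foxa2* and *Foxa3* entered this set through chondrocytes alone, their direction was fixed and their ranks do not stand as support.

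The table held 36 other forkhead genes, of which 16 had at least 10 counts and 11 had 0 reads in both libraries. Of the 16, 5 passed 2-fold toward chondrocytes and 3 toward dermal fibroblasts, with a median log2 fold of 0.42. Of all 14291 genes with at least 10 counts, 11.8% and 16.2% passed in these directions, with a median of 0.00. *Foxc1*, a regulator of mesoderm and of skull and cartilage formation, had 1342 reads against 27 and a fold of 51.1 (interval 34.9 to 77.8). *Foxc2*, its close relative, had 154 against 26, and *Foxf1*, known from lung and gut mesenchyme, had 244 against 15, a fold of 16.7 (interval 9.93 to 30.3). *Foxd1* had 146 against 50. In the other direction, *Foxd3*, a neural crest factor, had 10 reads in chondrocytes against 169 and was 16.5-fold higher in the dermal fibroblast library (interval 8.73 to 34.9), and *Foxs1* had 72 and 158. The proliferation factor *Foxm1* (1139 and 835 reads) and the broadly expressed *Foxk1* (2135 and 1607) and *Foxk2* (1291 and 1870) were, like *Foxo1*, within 2-fold. *Foxm1*, *Foxk1* and *Foxk2* were chosen after their values were seen.

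**Figure D4:**
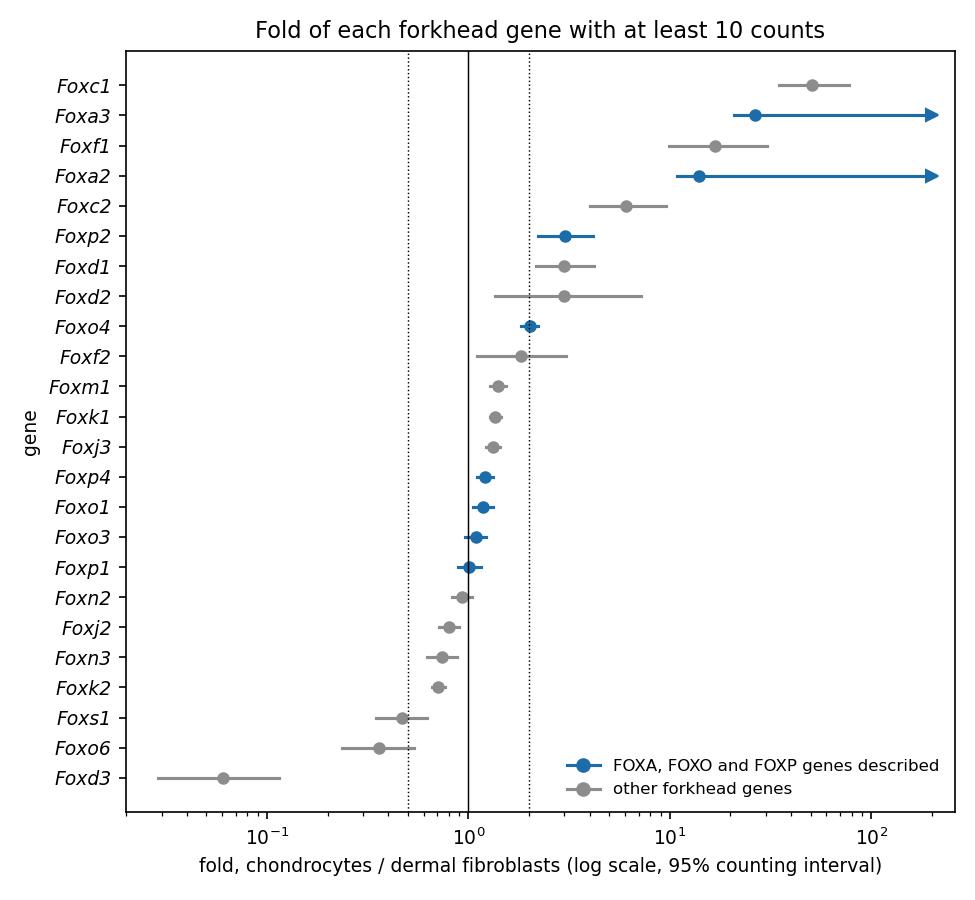
Fold (log axis, chondrocytes over dermal fibroblasts) with 95% counting interval for every forkhead gene with at least 10 counts in 1 library; the 8 genes described are in blue, the solid line is equality and dotted lines are 2-fold. *Foxa2* and *Foxa3* are drawn at their lower bounds with an arrow for an interval without an upper end, and *Foxo4* lies on the 2-fold line.

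Of 14 listed genes of hypertrophic cartilage, the setting in which the *Foxa* genes are known, 8 passed 2-fold toward chondrocytes and 1 toward dermal fibroblasts. The median log2 fold was 1.83. Of all 14291 genes, 11.8% and 16.2% passed in these directions. All 9 chondrocyte markers also passed toward chondrocytes, with a median log2 fold of 12.09. Whether the *Foxa* reads came from hypertrophic cells was not tested. *Col10a1*, the collagen that defines hypertrophic chondrocytes, had 10378 reads in chondrocytes against 3, a ratio of 3553 (interval 1215 to 17232). *Ibsp*, which encodes bone sialoprotein, had 349 against 1, a ratio of 358 when taken without the floor (interval 63.9 to 14198) and 119 with it, and the channel gene *Panx3* had 1077 against 22 (50.3-fold, interval 33.0 to 80.6). *Spp1*, which encodes osteopontin, was 2.90-fold higher (9639 against 3413 reads). *Vegfa* and *Pth1r* were within 2-fold, at 0.736 and 0.935. *Mmp9*, a gelatinase, had 101 reads in chondrocytes and 468 in dermal fibroblasts, 4.51-fold higher in dermal fibroblasts.

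Upstream of the FOXO proteins, 3 of 23 genes of the insulin and IGF to AKT pathway and of FOXO modification passed 2-fold toward chondrocytes and 0 toward dermal fibroblasts, so the share toward chondrocytes was near the 11.8% of all 14291 genes. The median log2 fold was 0.07, and it was -0.06 with total counts. The 3 genes were *Pik3cb*, a catalytic subunit of PI3 kinase (440 against 144 reads, 3.14-fold), *Sgk3*, an AKT-related kinase (357 against 132, 2.78-fold), and *Irs1*, an adaptor of the insulin and IGF receptors (2609 against 1081, 2.48-fold). *Akt1* (1.06), *Akt2* (4137 against 2829 reads) and the 14-3-3 genes *Ywhae* (1.24) and *Ywhaz* (1.10), whose proteins hold phosphorylated FOXO in the cytoplasm, were within 2-fold.

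Of 30 genes known as FOXO targets, 26 had at least 10 counts, of which 4 passed 2-fold toward chondrocytes, 4 toward dermal fibroblasts and 18 were within 2-fold. The median log2 fold was -0.07, and it was 0.05 with *Actb* scaling. *Bnip3*, a mitophagy receptor that also responds to low oxygen, was 4.94-fold higher in chondrocytes (3575 against 743 reads), *Cited2* 2.51-fold (2227 against 912) and the stress gene *Sesn3* 2.38-fold (889 against 383). The gluconeogenic gene *Pck1* was 9.48-fold higher in dermal fibroblasts (15 reads in chondrocytes, 146 in dermal fibroblasts), the pro-apoptotic gene *Bcl2l11* was 2.63-fold higher there (135 and 364) and the cyclin gene *Ccng2* was 2.38-fold higher there (191 and 467). The cell cycle inhibitor *Cdkn1a* (1.23), catalase (*Cat*, 0.798) and the autophagy gene *Map1lc3b* (0.551) were within 2-fold. The counts in both directions were near the shares of all 14291 genes (11.8% and 16.2%), and with *Actb* scaling 3 genes passed 2-fold toward dermal fibroblasts.

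Of 14 genes of the FOXP corepressors CtBP and NuRD, 13 were within 2-fold, among them *Chd4* (1.16), *Rbbp7* (1.76) and *Rbbp4* (1.47). Of all 14291 genes with at least 10 counts, 10288 were within 2-fold, and 11.8% and 16.2% passed toward chondrocytes and dermal fibroblasts. *Chd3*, a NuRD remodeling subunit, had 1519 reads in chondrocytes against 5212, and was 3.34-fold higher in the dermal fibroblast library. The median log2 fold was 0.09, and it was -0.04 with total counts. *Runx2*, the FOXP partner in bone and cartilage, had 1051 reads in chondrocytes against 778, or 1.39-fold (interval 1.26 to 1.52), and was chosen after its values were seen.

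**Figure D5:**
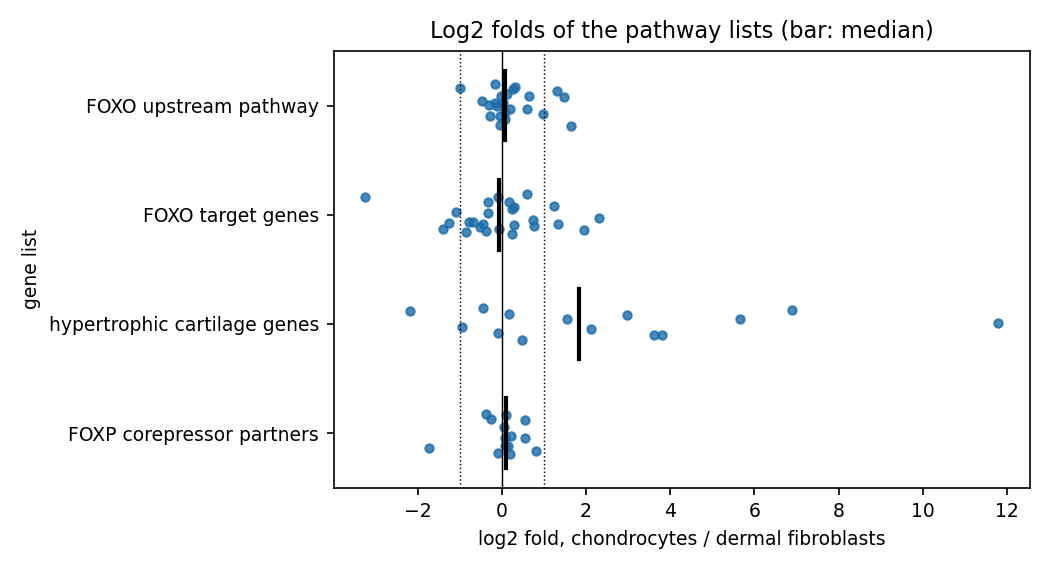
Log2 fold (chondrocytes over dermal fibroblasts) of each gene with at least 10 counts in the 4 pathway lists; each point is a gene, bars are list medians and dotted lines are 2-fold. The hypertrophic cartilage list had a median of 1.83, and the other lists had medians of 0.07, -0.07 and 0.09.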

How the data were processed

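The authors sequenced stranded mRNA libraries as 75 bp single-end reads, mapped them to mm10 (per the submitters' processing notes, TopHat2 2.0.13, Bowtie2 2.2.3 and SAMtools 0.1.19) and deposited raw counts, 1 whole number per gene symbol and library. The counting program, annotation and strand setting are not given in the sources used here. In 27 rows the symbol had become a date, and these rows were kept but not named.

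TMM factors (edgeR 4.0.16, R 4.3.3) were 0.954 for chondrocytes and 1.05 for dermal fibroblasts. A gene at or under 3 counts in both libraries was given no fold. Fold intervals are 95% Clopper-Pearson intervals (scipy 1.17.1), which allow for counting error alone: the libraries had no molecular identifiers, so reads of 1 molecule may be counted more than once. The same calculations were checked on simulated counts. Exon lengths were those of GENCODE vM1 (NCBIM37), and gene positions and start regions were those of RefSeq GRCm38.p6, in which 6 of the 8 genes had a start region.

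The 8 genes and the lists were chosen with earlier results of these data known. Beyond the 8 genes, the text names other forkhead genes with at least 100 counts and over 2-fold, *Foxa1*, *Foxo6* and *Foxp3*, defining markers at 0, the 4 most abundant genes and up to 3 largest folds per direction of each pathway list, and the 2 most abundant of each marker list. The largest folds were taken only from genes with at least 100 counts in 1 library and over 2-fold. This limit left out *Prg4* of the FOXO target list (72 reads in chondrocytes against 19, 3.89-fold higher in chondrocytes). Alternatives were other scalings (total counts, DESeq2 1.42.0 size factors, upper quartile, total counts without the 10 most abundant genes, *Actb*), a floor of 1 or of 10 counts, adding 1 to each count, a filter of 10 counts, a fold over 4 and an interval wholly beyond 2-fold. Some results on individual genes and sequences are not reported here.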

Additional observations from a re-analysis of the deposited data

How the results depend on the processing

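No paired analysis was possible because only 1 library stood for either group. All log2 folds shifted by -0.14 with total counts and by 0.12 with *Actb*, and by at most 0.05 with the other scalings. *Foxa2*, *Foxa3* and *Foxp2* were over 2-fold higher in chondrocytes under each scaling, floor and pseudocount, and *Foxo4* was not with total counts or DESeq2 size factors, which left 3 genes. A fold over 4 left 2 of the 8 genes. Of 64 alternative folds of the 8 genes, 61 stayed within the counting interval. The 3 others were *Foxp4* with total counts (1.10) and, with a floor of 10 counts, which lowers the folds by construction, *Foxa2* (4.21) and *Foxa3* (7.91). Part of this agreement was fixed in advance. The floors could not move genes above 10 counts in both libraries, and the intervals of *Foxa2* and *Foxa3* have no upper end.

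Over all rows, 1887 genes passed 2-fold toward chondrocytes and 2468 toward dermal fibroblasts. A fold over 4 gave 713 and 929, an interval wholly beyond 2-fold gave 1041 and 1546, the pseudocount of 1 gave 2874 and 2846, and total counts gave 1583 and 2847. With total counts, the FOXO upstream list had 1 gene over 2-fold higher in dermal fibroblasts (also 1 with DESeq2 size factors) and a median of -0.06, the hypertrophic list had 2 such genes, and the FOXP corepressor median was -0.04. With *Actb*, the medians of the other forkhead genes and of the FOXO upstream list were 0.55 and 0.19. With the longest transcript as length, the order of *Foxo4* and *Foxp4* in dermal fibroblasts turned (10.8 and 11.2), *Foxp2* (1.35) came above *Foxa2* (1.07) in chondrocytes, and *Foxp1* was at 3.71 there. The depth limits *Foxa2* and *Foxa3*, whose folds depend on the floor.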
